A study of Mus musculus with 5 samples.

Results

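The 10 imprinted genes followed here through RNA sequencing of LLC, a line from 1 mouse Lewis lung carcinoma, under 5 conditions were H19, IGF2, IGF2R, PEG3, PEG10, MEST, PLAGL1, CDKN1C, GRB10 and MEG3. They were chosen by name, and all 10 were found among the 13979 gene symbols shared by the 3 tables used. Each condition is 1 library: Control, PAZA (a polymer carrier that bears the DNA methyltransferase inhibitor 5-azacytidine), BMN (the PARP inhibitor BMN673), and PAZA loaded with BMN at a low and at a high dose, here called BMN/PAZA low dose and BMN/PAZA high dose. The sample labels describe LLC cells held in culture and treated for 72 h, whereas the study's methods describe tumors grown from LLC cells in C57BL/6 mice, collected one day after the last treatment, with saline as control. The methods give female mice bought at 4–6 weeks of age and do not say whether a library holds 1 tumor or a pool. With 1 library per group no difference has a replicate check, and no p-value was computed.

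Imprinted genes are expressed from mainly 1 parental allele, because the other allele is silenced by DNA methylation laid down in the egg or the sperm or by a regulatory RNA that such methylation controls. The marks are copied at each cell division by DNMT1 with UHRF1, and zinc finger proteins such as ZFP57 protect them during early development. Many imprinted genes act on fetal growth, are high in the embryo and placenta, and are turned down in most adult tissues apart from a few such as skeletal muscle. In tumors, both silencing and loss of imprinting of these genes are known.

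Of the 10 genes, 5 are expressed from the maternal allele in most tissues (H19, IGF2R, CDKN1C, GRB10 and MEG3) and 5 from the paternal allele (IGF2, PEG3, PEG10, MEST and PLAGL1). They lie in several imprinted domains of the mouse genome (GRCm38, GENCODE M21). H19 (chromosome 7 from 142575529 to 142578143) and IGF2 (chromosome 7 from 142650766 to 142666816) share a control region, and CDKN1C (chromosome 7 from 143458339 to 143461050) belongs to the neighbouring domain, so these genes are not independent of each other. PEG3 lies on chromosome 7 from 6703892 to 6730431. MEST (from 30723547 to 30748465) and PEG10 (from 4747306 to 4760517) lie on chromosome 6, PLAGL1 on chromosome 10 from 13060504 to 13131694, GRB10 on chromosome 11 from 11930508 to 12038683, MEG3 on chromosome 12 from 109541001 to 109571726 and IGF2R on chromosome 17 from 12682406 to 12769664. H19 and MEG3 are long noncoding RNAs, and the other 8 genes encode proteins. Exons of H19, IGF2, MEST, PLAGL1, CDKN1C and MEG3 overlap those of other annotated genes, and the strand setting of the counting is not given in the sources used here, so reads of an antisense partner cannot be told apart.

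H19 varied most among the 10 genes, and its RNA is also the precursor of a microRNA, which lies in an H19 exon on the minus strand of chr7:142577064-142577147. The microRNA itself was not measured. Its hairpin and the 2 mature arms of RefSeq (GRCm38.p6) are shown to identify the product of the transcript that varied, with the seed (bases 2 to 8) in capitals.
Mir675 hairpin: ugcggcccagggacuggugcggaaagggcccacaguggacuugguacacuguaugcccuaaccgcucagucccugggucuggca
mmu-miR-675-5p: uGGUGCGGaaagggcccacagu
mmu-miR-675-3p: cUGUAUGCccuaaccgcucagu

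Since imprinting marks are DNA methylation at CG dinucleotides, which lies at the promoter of some imprinted genes and elsewhere in the domain for others, the promoter windows of RefSeq (GRCm38.p6, 250 bases before to 50 after a start) were examined for them. A window was found for 7 of the 10 genes, with 14 windows in all, and H19, PEG10 and CDKN1C had no entry. The 3 windows that follow are printed 5′ to 3′, with every CG in capitals: MEG3, whose level was highest in the BMN/PAZA libraries, and MEST and IGF2R, whose levels varied least among the genes at or above 1 in every library. For MEG3 and MEST, which have 2 and 3 windows, one with the most CG was chosen.
MEG3, plus strand of chr12:109540746-109541045: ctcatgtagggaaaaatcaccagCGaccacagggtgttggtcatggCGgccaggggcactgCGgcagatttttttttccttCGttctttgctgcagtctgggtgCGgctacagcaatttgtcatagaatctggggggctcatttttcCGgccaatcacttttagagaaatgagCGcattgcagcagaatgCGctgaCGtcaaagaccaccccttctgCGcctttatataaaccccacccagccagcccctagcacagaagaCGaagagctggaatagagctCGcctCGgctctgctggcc
MEST, plus strand of chr6:30737800-30738099: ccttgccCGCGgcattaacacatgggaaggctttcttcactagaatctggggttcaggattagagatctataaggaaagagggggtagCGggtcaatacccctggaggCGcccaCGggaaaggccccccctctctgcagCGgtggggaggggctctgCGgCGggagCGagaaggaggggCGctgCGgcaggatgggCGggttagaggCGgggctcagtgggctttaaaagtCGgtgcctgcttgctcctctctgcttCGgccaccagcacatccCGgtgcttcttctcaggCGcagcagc
IGF2R, minus strand of chr17:12769657-12769956: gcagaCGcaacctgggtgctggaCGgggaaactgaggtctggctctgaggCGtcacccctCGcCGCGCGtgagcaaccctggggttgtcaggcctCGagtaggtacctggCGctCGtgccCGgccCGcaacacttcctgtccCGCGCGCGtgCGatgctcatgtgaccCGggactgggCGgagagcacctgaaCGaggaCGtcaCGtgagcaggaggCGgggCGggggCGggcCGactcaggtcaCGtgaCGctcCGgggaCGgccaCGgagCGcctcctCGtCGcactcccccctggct
These windows hold 13, 17 and 34 CG dinucleotides, beside a median of 7 over all 32851 windows, of which 37.9%, 31.4% and 7.73% hold at least as many. The other MEG3 window holds 1 CG, and the MEST windows that are not shown hold 8 and 17. The hexamer TGCCGC, which ZFP57 binds when methylated, was searched on both strands. It was found in 6 of the 14 windows, beside 11.6% of all windows. These windows belong to 5 of the 7 genes (GRB10, IGF2, MEG3, MEST and PLAGL1). No share per gene was computed to set beside that count. Windows of 1 gene can overlap, as 2 of MEST do, and DNA methylation was not measured.

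Levels are given as scaled FPKM: the deposited values (FPKM, fragments per kilobase of transcript per 1000000 fragments) were scaled so that each library sums to 1000000 over the shared symbols, which allows levels of different genes and of separately normalized tables to be set side by side. Values of single-transcript genes clustered at whole multiples of 1 step per library. If the values are true FPKM, the steps give a depth of about 6130000 to 8560000 fragments per library. This depth depends on how a table was normalized. Values of BMN/PAZA low dose in its table with BMN were 0.307 times those in its table with BMN/PAZA high dose. Fragment numbers of a gene divide its value by the step of the same table. Fragment numbers below come from these steps and the longest annotated transcript, so they are estimates that are too high where shorter transcripts were used, and their exact Poisson 95% intervals cover counting error only. An exact 0 can be a failed estimate in these tables, since ALDOA, a glycolytic enzyme of nearly all cells, was listed at 0 in BMN and BMN/PAZA low dose but at 352 to 425 in the other libraries, and GAPDH, another one, stood at only 1.84 to 4.67 in all 5. None of the 10 genes lay over 0.5% from the constant ratio between tables that hold the same library. Only values above 0 in both tables were compared, so no listed 0 was checked. Control is in 1 table only and was not compared.

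In most libraries the imprinted genes were low. Between 3 (Control) and 6 (BMN/PAZA high dose) of the 10 reached a level of 1, whereas 78.2 to 80.4% of the shared symbols did. Their levels summed to 21.3 in Control, 36.4 in PAZA, 32.4 in BMN, 20.9 in BMN/PAZA low dose and 30.6 in BMN/PAZA high dose, and IGF2R alone gave between 9.85 and 13.5 of that. The 5 maternally expressed genes summed to 13.8 to 27.5 and the 5 paternally expressed genes to 6.34 to 8.94.

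**Figure D1:**
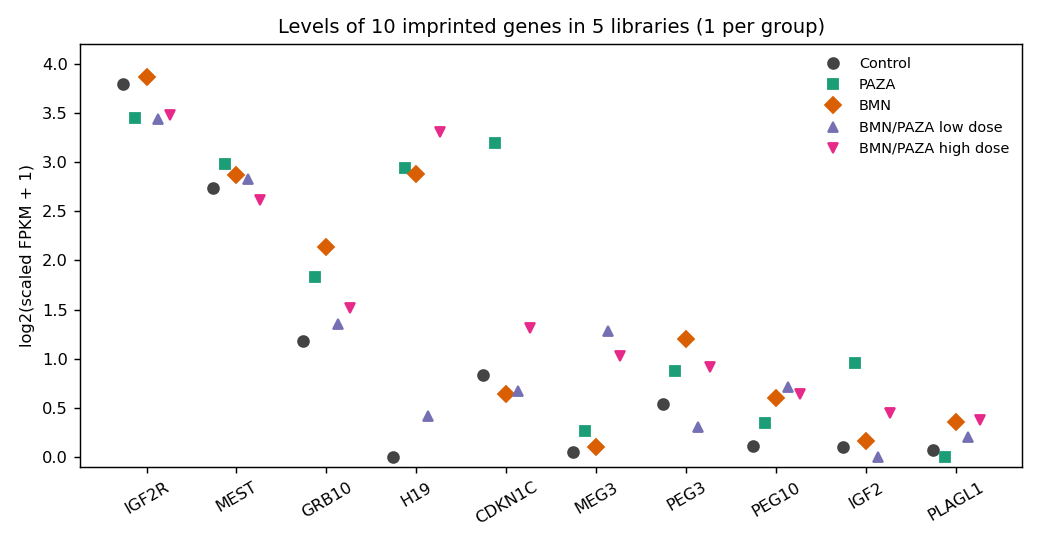
Levels of the 10 imprinted genes on the log2(scaled FPKM + 1) scale (vertical axis), with 1 point per library and 1 library per group. IGF2R and MEST lie close together in all 5 libraries, H19 is split between 3 high and 2 low libraries, and CDKN1C stands high in PAZA alone.

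IGF2R and MEST were the steadiest of the genes at or above 1 in every library. IGF2R, a receptor that carries IGF2 to the lysosome for breakdown, had a level of 12.9 in Control, 13.5 in BMN, 9.94 in PAZA, 9.85 in BMN/PAZA low dose and 10.1 in BMN/PAZA high dose. The 3 libraries with PAZA were thus the 3 lowest, at about 319 to 333 fragments, beside about 424 in Control and 535 in BMN. The differences from Control were small, between −0.36 and −0.32 on the log2(scaled FPKM + 1) scale, and shrank to between −0.27 and −0.10 when libraries were scaled by median ratios. The levels of the 3 libraries with PAZA differed by less than their Poisson intervals, which ran from 285 to 371 fragments over the 3.

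MEST, a hydrolase-like protein of the mesoderm and of growing adipose tissue, had a level of 5.68 in Control, 6.90 in PAZA, 6.32 in BMN, 6.11 in BMN/PAZA low dose and 5.13 in BMN/PAZA high dose. With about 50 to 75 fragments per library, the Poisson intervals of all 5 libraries overlapped, and no order could be told from counting error. The sign of its differences from BMN, and of BMN/PAZA high dose from Control, turned with median ratio scaling. The log2 range over the libraries was 0.37 for MEST and 0.42 for IGF2R, and 91.4% and 86.5% of the 11214 symbols with a mean level of at least 1 had a range at least as wide.

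H19 showed the widest range of the 10 genes. It is a fetal long noncoding RNA that is retained in adult skeletal muscle. H19 was listed at 0 in Control and at 0.334 in BMN/PAZA low dose, and reached 6.67 in PAZA, 6.33 in BMN and 8.86 in BMN/PAZA high dose. The high libraries had about 58, 64 and 74 fragments, with overlapping Poisson intervals (44 to 75, 49.3 to 81.7 and 58.1 to 92.9), and BMN/PAZA low dose had about 3 (0.619 to 8.77). The log2 difference was −2.46 for BMN/PAZA low dose against BMN, −2.52 against PAZA and −2.89 against BMN/PAZA high dose. Between BMN/PAZA high dose and BMN it was 0.43. Only 0.562% of the symbols with a mean level of at least 1 had a range as wide as that of H19, 3.30 on the log2 scale. H19 was high in both single-agent libraries and in BMN/PAZA high dose, and low in Control and BMN/PAZA low dose.

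Skeletal muscle markers were split between the libraries in the same way. In bulk samples, fewer cells of a type and less RNA per cell cannot be told apart. All 8 markers of the list (ACTA1, CKM, MYH4, MYH1, TNNT3, MYLPF, ACTN3 and MYL1, which encode contractile and energy proteins of muscle fibers) were measured, and their levels summed to 8.70 in Control and 11.8 in BMN/PAZA low dose, but to 60.4 in PAZA, 184 in BMN and 215 in BMN/PAZA high dose. MYL1 was listed at 0 in Control, and CKM and MYL1 in BMN/PAZA low dose. Among the 11214 genes with a mean level of at least 1, the profile nearest to that of H19 over the 5 libraries was that of MYLPF, with a root mean square difference of 0.16 between mean-centred log2 values, followed by MB (myoglobin) at 0.26 and SNORA7A (a small nucleolar RNA) at 0.38. MYLPF stood at 2.12 in Control, 21.9 in PAZA, 26.2 in BMN, 4.33 in BMN/PAZA low dose and 31.8 in BMN/PAZA high dose. The summed adipocyte markers, 5 of 6 measured, were also lowest in Control (45.8) and BMN/PAZA low dose (55.0). Their sums were 114 in PAZA, 92.7 in BMN and 66.7 in BMN/PAZA high dose. FABP4 (a lipid carrier) alone gave 42.8 of the sum in Control and 50.7 in BMN/PAZA low dose. ADIPOQ (adiponectin) was listed at 0 in these libraries. CIDEC, LEP and CFD were not split in this way. CIDEC was highest in Control (1.66) and LEP in BMN/PAZA low dose (0.249). CFD was higher in BMN/PAZA low dose than in BMN/PAZA high dose. In every library, 1 or 2 of the adipocyte markers were listed at 0. The 6 endothelial markers summed to 36.4 in Control, 42.7 in BMN/PAZA low dose, 43.2 in BMN/PAZA high dose, 57.2 in BMN and 63.2 in PAZA, and none was listed at 0. The part of muscle, fat and vessels in the H19 values was not tested.

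**Figure D2:**
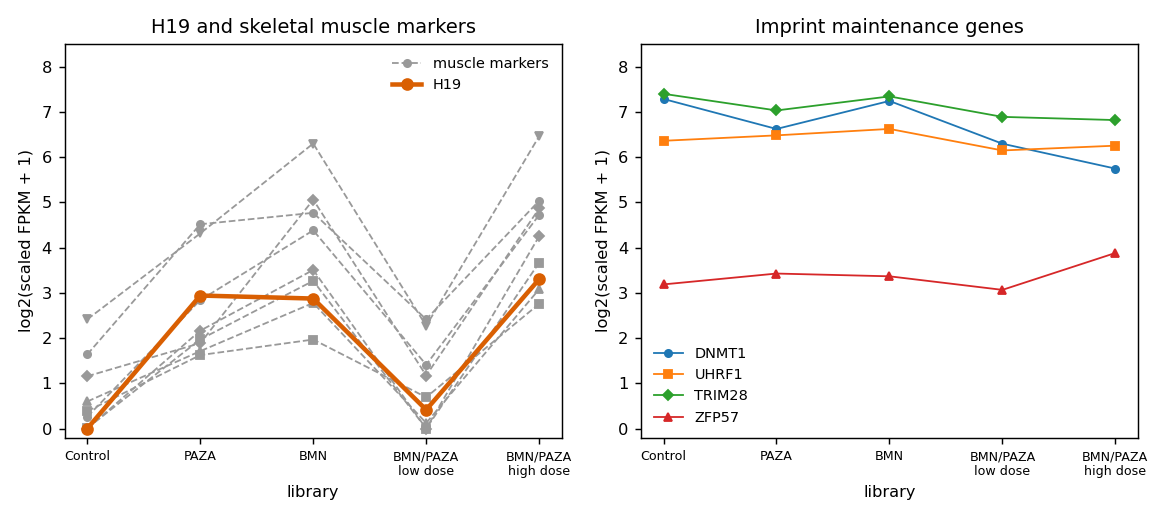
Left, H19 (orange) and the 8 skeletal muscle markers (grey) and right, DNMT1, UHRF1, TRIM28 and ZFP57, as log2(scaled FPKM + 1) in each library. Lines only join the values of 1 gene, and H19 is low in Control and BMN/PAZA low dose, where the summed muscle markers are also lowest (8.70 and 11.8).

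IGF2, the fetal growth factor that shares its control region with H19, was under 1 in every library. Its level was 0.0713 in Control, 0.938 in PAZA, 0.118 in BMN, 0 in BMN/PAZA low dose and 0.363 in BMN/PAZA high dose. PAZA had about 17 fragments (9.90 to 27.2) and Control about 1 (0.0253 to 5.57), whereas the intervals of the other 4 libraries overlapped. H19 and IGF2 were both lowest in Control and BMN/PAZA low dose, but in BMN, where H19 was high, IGF2 had about 2 fragments.

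CDKN1C was high in 1 library. It encodes p57, an inhibitor of cyclin-dependent kinases that stops the cell cycle in differentiating cells. Its level was 8.12 in PAZA, 1.49 in BMN/PAZA high dose, 0.779 in Control, 0.597 in BMN/PAZA low dose and 0.555 in BMN. PAZA was 10.4-fold above Control without a pseudocount, and 2.36 higher on the log2(scaled FPKM + 1) scale, with about 58 fragments (44 to 75) beside about 5 (1.62 to 11.7). The other 4 libraries had about 4 to 10 fragments with overlapping intervals. CDKN1C was thus not high in the libraries that combine PAZA with BMN, and BMN/PAZA low dose differed from PAZA by −2.51 on the log2 scale. The 3 nearest profiles were those of FBP2 (the muscle form of fructose bisphosphatase), SH2D3C (a signaling adaptor) and COMMD4, at root mean square differences of 0.22, 0.26 and 0.36. The summed adipocyte (114) and endothelial (63.2) markers were also highest in PAZA. FABP4, a lipid carrier of fat cells and capillaries, stood at 104 in PAZA beside 42.8 to 73.0 elsewhere. EMCN, an endothelial mucin, stood at 21.8 beside 8.88 to 13.5. The other measured markers of these lists were not highest in PAZA. PECAM1 (25.8), CDH5 (14.1), KDR (4.06), TEK (1.82), CFD (18.7) and ADIPOQ (0.739) were highest in BMN. TIE1 (2.36) was highest in BMN/PAZA high dose, LEP (0.249) in BMN/PAZA low dose and CIDEC (1.66) in Control. The part of these cell types in the CDKN1C values was not tested. KCNQ1OT1, the noncoding RNA whose transcription silences CDKN1C on the paternal allele, varied between 0.617 in Control and 1.14 in BMN/PAZA low dose.

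MEG3 was higher in both libraries that combine the agents. This maternally expressed noncoding RNA of the DLK1 domain can raise p53 activity and is silenced in several tumor types. It had a level of 0.0350 in Control, 0.202 in PAZA, 0.0726 in BMN, 1.43 in BMN/PAZA low dose and 1.03 in BMN/PAZA high dose. The estimated fragments were about 76 (59.9 to 95.1) and 55 (41.4 to 71.6) in the combinations and 2 to 11 in the other 3 libraries, whose highest interval ended at 19.7. These numbers rest on the longest of 11 transcripts, 14548 bases, and would be lower for a shorter one. The log2 difference from BMN was 1.18 at the low and 0.92 at the high dose, and from Control 1.23 and 0.97, so that a 2-fold threshold on this scale separates 2 doses with similar values. Without scaling, the largest of the low-dose differences, from Control, was 0.86. With median ratio scaling, the high-dose differences passed 2-fold, at 1.06 from Control and 1.02 from BMN. The nearest profiles were those of ARID3B (a DNA-binding protein) at 0.082, SLC4A3 (an anion exchanger) at 0.11 and STYX (a pseudophosphatase) at 0.12.

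RIAN, a noncoding RNA transcribed from the same domain and strand as MEG3, was spread in another way. It had 2.93 in Control, 8.52 in PAZA, 5.70 in BMN, 7.59 in BMN/PAZA low dose and 9.51 in BMN/PAZA high dose. The 4 treated libraries were all above Control, by 0.77 to 1.42 on the log2 scale, and PAZA, where MEG3 was low, was among the highest. DLK1, the paternally expressed gene of that domain, was outside the shared symbols, and in the full table of BMN and BMN/PAZA low dose it was listed at 0 and 0.0407 FPKM.

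GRB10 and PEG3 were highest in BMN. GRB10, an adaptor that dampens insulin and growth factor receptor signaling, had a level of 3.41 in BMN, 2.56 in PAZA, 1.86 in BMN/PAZA high dose, 1.56 in BMN/PAZA low dose and 1.26 in Control. BMN (about 77 fragments, 60.8 to 96.2) lay above Control (about 24, 15.4 to 35.7), while neighbours in this order had overlapping intervals. PEG3, a zinc finger protein, had 1.30 in BMN, 0.882 in BMN/PAZA high dose, 0.832 in PAZA, 0.455 in Control and 0.236 in BMN/PAZA low dose. BMN/PAZA low dose had about 7 PEG3 fragments (2.81 to 14.4), beside about 50 in BMN (37.1 to 65.9). No difference of either gene reached 2-fold on the log2(scaled FPKM + 1) scale, the widest being 0.96 for GRB10 in BMN against Control and −0.89 for PEG3 in BMN/PAZA low dose against BMN.

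The 8 fibroblast markers, among them COL1A1, COL3A1 and PDGFRA, were also highest in BMN, with summed levels of 960, beside 622 in PAZA, 403 in BMN/PAZA high dose, 377 in Control and 370 in BMN/PAZA low dose, and none was listed at 0. Keratinocyte markers, 5 of 6 measured, summed to 207 in BMN, 68.4 in Control and 2.13 to 12.9 in the 3 libraries with PAZA, and KRT5 and KRT1 were listed at 0 in BMN/PAZA low dose. GRB10 and PEG3 were also both lowest in Control and BMN/PAZA low dose, the libraries with the lowest summed muscle markers (8.70 and 11.8). At the low and the high dose, PEG3 stood at 0.236 and 0.882 and GRB10 at 1.56 and 1.86. Summed muscle markers were 11.8 and 215 there, and fibroblast markers 370 and 403. The part of muscle, fibroblasts and keratinocytes in the GRB10 and PEG3 values was not tested. Of 8 lung epithelium markers, CLDN18 alone was among the shared symbols, at 0.204 or less, although the labels give lung as tissue. Of 5 epithelial markers, KRT8 (115 to 171), KRT19 (27.4 to 47.4) and CDH1 (1.57 to 5.14) were present in every library, EPCAM was listed at 0 in PAZA and at most at 3.30, and KRT18 was listed at 0 in Control and at most at 3.49.

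PEG10 and PLAGL1 stayed under 1 throughout. PEG10, a retrotransposon-derived gene needed for the placenta, had 0.0788 in Control, 0.269 in PAZA, 0.522 in BMN, 0.643 in BMN/PAZA low dose and 0.563 in BMN/PAZA high dose. Control had about 2 fragments (0.242 to 7.22) and the 3 libraries with BMN about 14 to 16 (7.65 to 26.0 over the 3). SGCE (a sarcoglycan), which is transcribed away from the same promoter region as PEG10, had 3.56 in BMN, 2.33 in BMN/PAZA high dose, 2.09 in PAZA, 0.829 in Control and 0.568 in BMN/PAZA low dose. PEG10 was highest and SGCE lowest in BMN/PAZA low dose, the 1 library where both had similar levels, whereas SGCE stood above PEG10 in the other 4. PLAGL1, a zinc finger regulator of other imprinted genes, ranged from 0 in PAZA to 0.303 in BMN/PAZA high dose on at most about 7 fragments, and no difference between libraries was detectable at this depth.

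**Figure D3:**
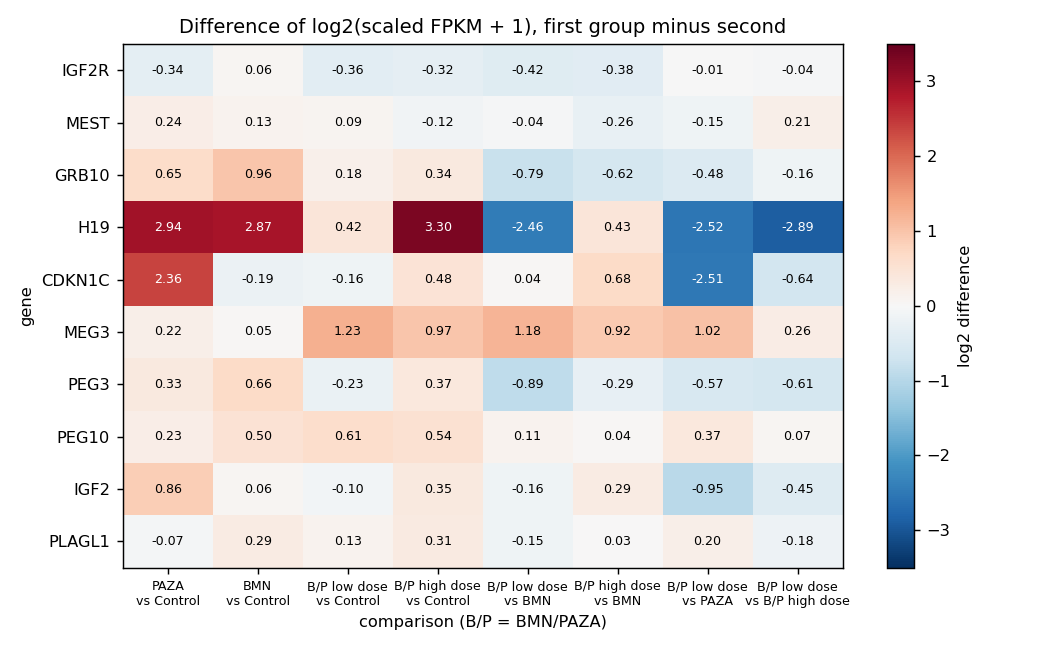
Differences of log2(scaled FPKM + 1) for the 10 genes (rows) in the 8 comparisons (columns), first group minus second, with red for higher and blue for lower in the first group. The strong colors, past 2 in size, are 6 cells of H19 (from −2.89 to 3.30) and 2 of CDKN1C, PAZA against Control (2.36) and BMN/PAZA low dose against PAZA (−2.51), while H19 is pale in the other 2 (0.42 and 0.43).

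The comparisons were read against all shared symbols above 0 in either library, with a difference of at least 1 on the log2 scale (2-fold) in the stated direction. PAZA against Control, the 2 columns of 1 table, had 2 of 10 genes 2-fold higher (H19 and CDKN1C) and 0 of 10 lower, beside 3.47% and 3.53% of all 13979 symbols. BMN against Control had 1 of 10 higher (H19) and 0 lower, beside 4.66% and 2.25%. BMN/PAZA low dose against Control had 1 higher (MEG3) and 0 lower, beside 3.87% and 3.71%, and BMN/PAZA high dose 1 higher (H19) and 0 lower, beside 3.2% and 4.95%. With 10 genes, 1 gene is 10% of them, so counts of 0 and 1 cannot be told from the shares over all symbols. These 4 comparisons share the Control library, and all but the first were set across tables. The 0 H19 value of Control takes part in 3 of the 5 calls, which rest on the pseudocount.

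Among the treated libraries, BMN/PAZA low dose against BMN had 1 gene 2-fold higher (MEG3) and 1 lower (H19), beside 3.37% and 5.42% of all symbols. BMN/PAZA high dose against BMN had 0 of 10 in either direction, beside 2.33% higher and 6.89% lower. Against PAZA, BMN/PAZA low dose had 1 gene higher (MEG3) and 2 lower (H19 and CDKN1C), beside 2.93% and 2.91%. Between the doses, the low dose had 0 genes higher and 1 lower (H19), beside 4.13% and 2.52%. These comparisons share the BMN, BMN/PAZA low dose and BMN/PAZA high dose libraries among them.

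The median log2 difference of the 10 genes from Control was 0.29 in PAZA, 0.21 in BMN, 0.11 in BMN/PAZA low dose and 0.36 in BMN/PAZA high dose, beside −0.068, 0.093, −0.040 and −0.17 over all symbols. Higher than Control were 8, 9, 6 and 8 of the 10 genes, beside 43.6%, 59.9%, 46.8% and 35.5% of all symbols. The 5 maternally expressed genes had medians of 0.65, 0.064, 0.18 and 0.48, and the 5 paternally expressed genes 0.24, 0.29, 0.089 and 0.35. Against BMN, the median of the 10 was −0.16 at the low and 0.033 at the high dose, beside −0.14 and −0.27 over all symbols. Most of these genes are low, and the pseudocount draws their differences towards 0.

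Other imprinted genes were taken from a list of 53, of which 33 were among the shared symbols (32 with a value above 0 in BMN or Control). Compared with Control, 2 were 2-fold higher and 1 lower in PAZA, 1 higher in BMN, 4 higher in BMN/PAZA low dose and 2 higher in BMN/PAZA high dose, with 0 lower in these 3. Over all symbols, 3.47% were higher and 3.53% lower in PAZA, and 4.66%, 3.87% and 3.2% were higher and 2.25%, 3.71% and 4.95% lower in the other 3, so that 1 gene of 33 is close to these shares. The median difference of the list from Control was 0.054, 0.17, 0.090 and −0.079 in the same order, beside −0.068, 0.093, −0.040 and −0.17 over all symbols. Without scaling, SGCE in BMN (1.32) came to 0.97, and NNAT (1.22) and KCNQ1 (1.03) in BMN/PAZA low dose came to 0.84 and 0.81, all under 2-fold. AIRN, the noncoding RNA that runs antisense through IGF2R and silences it on the paternal allele, was listed at 0 in Control and BMN and at 2.12 in PAZA, 0.300 in BMN/PAZA low dose and 0.595 in BMN/PAZA high dose. The 3 libraries with a value for AIRN were the 3 with the lowest IGF2R. IGF2R stood at 9.94 in PAZA, 9.85 in BMN/PAZA low dose and 10.1 in BMN/PAZA high dose. GNAS, UBE3A, COPG2, CD81, MCTS2 and ZRSR1 were also lowest in these 3 libraries. The part of AIRN in the IGF2R values was not tested.

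NNAT (neuronatin) was listed at 0 in Control and stood at 0.508 in PAZA, 0.858 in BMN, 1.32 in BMN/PAZA low dose and 2.11 in BMN/PAZA high dose. TSSC4, of the CDKN1C domain, had 1.10 in Control and 1.06 in BMN, and 2.68, 3.90 and 2.66 in PAZA, BMN/PAZA low dose and BMN/PAZA high dose. The 3 libraries with PAZA were the 3 highest for TSSC4. KCNQ1, a potassium channel of the same domain, reached 2.14 in BMN/PAZA low dose and lay between 0.187 and 0.538 elsewhere. ZRSR1, a splicing factor retrogene, had 34.0 in Control, 28.6 in BMN, 19.9 in BMN/PAZA low dose, 19.4 in BMN/PAZA high dose and 13.4 in PAZA, with the 3 libraries that hold PAZA lowest. COPG2, which overlaps MEST from the other strand, lay between 14.9 and 22.3, ZIM1, a neighbour of PEG3, was at most 0.265, and USP29, another neighbour, was outside the shared symbols and listed at 0 FPKM in BMN and 0.273 in BMN/PAZA low dose.

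**Figure D4:**
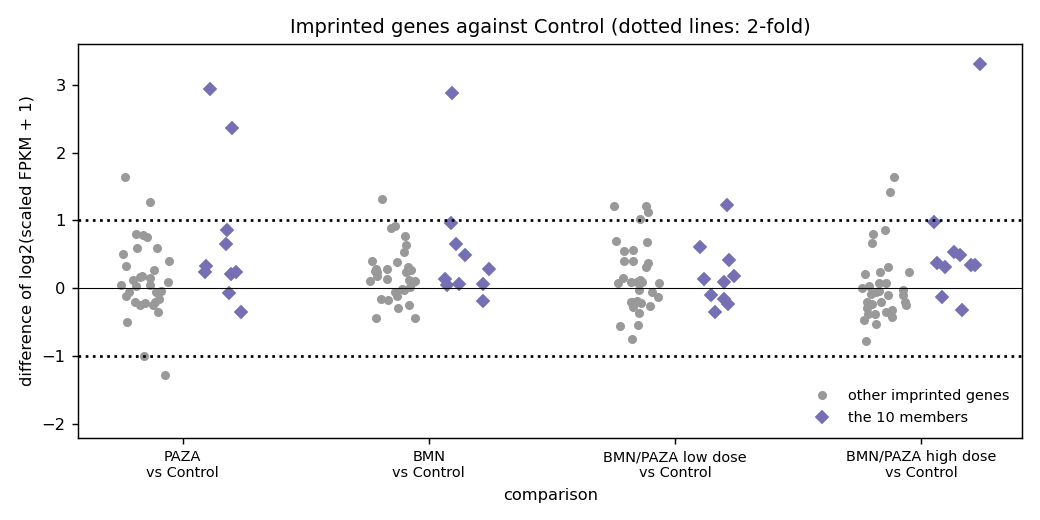
Difference from Control of log2(scaled FPKM + 1) for the 10 genes (purple) and the other imprinted genes measured (grey), with 1 point per gene in each of the 4 treated libraries. Most points lie between the dotted 2-fold lines, and H19 gives the top purple point in PAZA (2.94), BMN (2.87) and BMN/PAZA high dose (3.30).

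Of 16 genes that write, guard or remove imprint methylation, 14 were measured. DNMT1 had 155 in Control, 150 in BMN, 97.5 in PAZA, 77.6 in BMN/PAZA low dose and 52.7 in BMN/PAZA high dose, and was the 1 gene of this list past 2-fold from Control, in BMN/PAZA high dose (−1.54), beside 4.95% of all symbols 2-fold lower there. UHRF1 lay between 69.8 and 97.5, TRIM28 (the corepressor that ZFP57 recruits) between 112 and 168, and ZFP57 between 7.37 and 13.7, with the top value in BMN/PAZA high dose. DNMT1 was lower in each library with PAZA than in Control and BMN, and so were TRIM28, SETDB1, CTCF, TET2, TET3 and SMCHD1. The other genes measured from this list were not split in this way. The part of DNMT1 in the levels of the 10 genes was not tested.

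Genes of the insulin-like growth factor axis, in which IGF2, IGF2R and GRB10 act, were measured for 14 of 16. Compared with Control, 1 was 2-fold higher in PAZA (IGF2BP1), 2 in BMN (IGFBP5 and IGF2BP1) and 0 in either combination, with 0 lower in any. Over all symbols, 3.47%, 4.66%, 3.87% and 3.2% were higher and 3.53%, 2.25%, 3.71% and 4.95% lower in PAZA, BMN, BMN/PAZA low dose and BMN/PAZA high dose, and 0 to 2 genes of 14 cannot be told from such shares. The difference of IGF2BP1 in BMN was 1.02 and came to 0.91 with median ratio scaling and 0.81 without scaling, and in PAZA it was 1.10 and came to just under 1 without scaling. IGF2BP1, a fetal RNA-binding protein that binds IGF2 and H19 transcripts, had 2.34 in Control, 6.15 in PAZA, 5.78 in BMN, 5.00 in BMN/PAZA low dose and 2.57 in BMN/PAZA high dose, and its relatives IGF2BP2 and IGF2BP3 lay between 46.7 and 72.7 and between 3.66 and 8.44. IGFBP5, a secreted binding protein of these growth factors, had 4.21 in BMN and 0.735 to 1.81 elsewhere. IGF1R, the receptor through which IGF2 signals, had 22.3 in Control, 17.7 in BMN, 17.4 in BMN/PAZA low dose, 15.4 in BMN/PAZA high dose and 10.8 in PAZA. IGF1 was also highest in Control (3.16) and lowest in PAZA (1.37).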

How the data were processed

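RNA sequencing values of 5 LLC libraries (1 per group) were deposited as 5 tables of 2 groups each. The authors mapped reads to GRCm38, and the submitters' processing notes name HISAT2 and StringTie, with versions not given in the sources used here. The deposited values name no unit and were read as FPKM, because the columns of the full table do not sum to 1000000 and values times transcript length fall on whole steps. Control and PAZA were taken from their common table, BMN and BMN/PAZA low dose from theirs, and BMN/PAZA high dose from its table with BMN. The highest row was kept for a repeated symbol, and each column was scaled to sum to 1000000 over shared symbols. Differences are of log2(scaled FPKM + 1). The value of 1 fragment was the most frequent product of FPKM and transcript length among single-transcript genes of GENCODE M21. Within 5% of 1 step lay 139 to 863 genes per library, within 5% of 2 steps 66 to 561 and within 5% of 1.5 steps 16 to 90. With 1 library per group no test was run. Labels name no separate cultures or animals.

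The genes, lists and rules were chosen with earlier results of these data known. Genes outside the 10 were named where the level reached 1 in a library and the difference from Control reached 1 on the log2 scale in at least 1 library, at most 12 per list, together with DNMT1, UHRF1, TRIM28, ZFP57, IGF1, IGF1R, the 3 IGF2BP genes and domain neighbours of the 10. The 3 genes of most similar profile were named for the 3 members with the widest range. Alternatives were a pseudocount of 0.1, a minimum level of 1, median ratio scaling, no scaling, values from another table, summed repeated symbols, thresholds of 1.5-fold and 4-fold and, chosen after seeing the data, at least 10 estimated fragments. The steps were tested on simulated data. Tables were read with pandas 2.3.3 and numpy 2.4.6 under Python 3.11.15, Poisson intervals were computed with scipy 1.17.1, and plots were drawn in matplotlib 3.10.9.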

Additional observations from a re-analysis of the deposited data

Results flagged for a closer look

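H19 was higher with PAZA than without it where no BMN was given, and lower with PAZA at the low dose where BMN was given. Its difference of log2(scaled FPKM + 1) was 2.94 for PAZA against Control and −2.46 for BMN/PAZA low dose against BMN, each within 1 table, and both passed 2-fold. Each side is 1 library against 1 library, and the difference between the contrasts was not tested. In the other library that combines the agents, BMN/PAZA high dose, H19 was 0.43 above BMN and not below it, with summed muscle markers of 215, so the opposite direction was seen at the low dose alone. The Control value is listed at 0, and summed skeletal muscle markers stood at 8.70 in Control, 60.4 in PAZA, 184 in BMN and 11.8 in BMN/PAZA low dose. The part of muscle tissue in these values was not tested.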

How the results depend on the processing

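No paired analysis was possible because each group has 1 library. Depth limits most of these genes, since 7 of the 10 had under 10 estimated fragments in at least 1 library (all but GRB10, IGF2R and MEST), and no replicate error is known. Over all symbols, the median difference lay between −0.27 (BMN/PAZA high dose against BMN) and 0.12 (low against high dose), and between −0.0023 and 0.025 with median ratio scaling. With that scaling, the share of 2-fold calls that were higher moved from 25.3% to 58.1% for BMN/PAZA high dose against BMN, from 39.3% to 61.1% for BMN/PAZA high dose against Control, from 38.4% to 59.0% for BMN/PAZA low dose against BMN, from 62.1% to 49.6% for low against high dose and from 49.6% to 60.3% for PAZA against Control.

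Under the alternatives, 115 of 140 counts stayed within 1.5 times and 42 of 62 medians within 0.1 of the reported value. The median for BMN/PAZA high dose against BMN (0.033) turned its sign in 3 alternatives, given below. Of 75 differences of called genes, 72 stayed past 2-fold in the same direction, though not at the same size (H19 in PAZA against Control went from 2.94 to 6.08 with a pseudocount of 0.1). The 2-fold calls of H19 and CDKN1C held in every alternative computed for them. Some of the alternatives could not change a difference. A minimum level and a minimum of estimated fragments only remove genes, and each gave 11 of the 75 values. The BMN values were the same in both tables, which gave 3 more. MEG3 lost its call in BMN/PAZA low dose without scaling, at 0.86 against Control, 0.83 against BMN and 0.73 against PAZA, which left 0 genes higher in each of these, as did a threshold of 4-fold.

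A pseudocount of 0.1 gave 5 genes 2-fold higher than Control in PAZA, 5 in BMN, 3 in BMN/PAZA low dose and 5 in BMN/PAZA high dose, with medians of 1.0, 0.84 and 1.14 in PAZA, BMN and BMN/PAZA high dose. It gave 3 genes higher in BMN/PAZA high dose than BMN and 3 higher in BMN/PAZA low dose than PAZA, and 4 lower in BMN/PAZA low dose than in each of BMN, PAZA and BMN/PAZA high dose, with medians of −0.52, −0.43 and −0.46. Over all symbols, 8.7 to 12% were then higher than Control, 5.91% and 9.8% were higher in the former pair of comparisons, and 7.08 to 11.6% were lower in the last 3. These values follow from the weight a smaller pseudocount gives to levels near 0.

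A threshold of 1.5-fold gave 4, 3, 2 and 2 genes higher than Control in PAZA, BMN, BMN/PAZA low dose and BMN/PAZA high dose. It gave 2 higher and 1 lower in BMN/PAZA high dose against BMN, and 3 lower in BMN/PAZA low dose against each of BMN and BMN/PAZA high dose. Over all symbols, this threshold was passed by 10.5%, 13.2%, 11.7% and 8.49% higher than Control, by 6.15% higher and 24% lower in BMN/PAZA high dose against BMN, and by 18.7% and 6.7% lower in the last pair. Median ratio scaling gave 2 genes higher in BMN/PAZA high dose than Control (H19 and MEG3, median 0.48), beside 4.69% of all symbols. It gave 1 higher than BMN (MEG3, median 0.14), beside 4.25%.

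Genes at or above 1 in either library had medians of 0.65 for PAZA and 0.66 for BMN against Control, and −0.60 and −0.26 for the low and the high dose against BMN. Without genes under 1 in every library the medians were −0.42 and −0.26 for the low and the high dose against BMN and −0.48 for the low dose against PAZA. With at least 10 estimated fragments, an alternative chosen after seeing the data, they were 0.49 and 0.58 for PAZA and BMN against Control, −0.42 and −0.11 for the low and the high dose against BMN and −0.48 for the low dose against PAZA. The cause of these shifts was not tested.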
